A study of Mus musculus with 10 samples.

Results

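Kruppel-like factors are zinc-finger transcription factors, and 10 of them were compared here between fasted and refed mouse livers and with loss of hepatocyte Nampt. The members are Klf3, Klf4, Klf6, Klf9, Klf10, Klf11, Klf12, Klf13, Klf15 and Klf16. They were chosen by gene symbol among the 41388 genes of the deposited count tables, with earlier results of these data known. All 10 were among the 13444 genes tested. The study asked how NAMPT, the rate-limiting enzyme of NAD salvage, shapes the fasting response of hepatocytes. Livers of male C57B/6J mice, about 12 weeks old by the sample labels, were sequenced with 1 poly-A library per mouse. The reporting summary of the study gives a younger age range for the NAMPT LKO mice. The WT mice carry a floxed but intact Nampt gene (NAMPT fl/fl), and their NAMPT LKO littermates lost it through Albumin-cre, a transgene driven in hepatocytes, so other liver cells keep the gene. WT Fasting (n = 3) and NAMPT LKO Fasting (n = 5) mice were fasted for 24 h by the sample labels. WT Refed (n = 2) mice were fasted for 22 h and refed for 2 h by the labels, and the text of the study describes random-fed controls and a shorter fast. All results against the refed group rest on its 2 livers, and refed NAMPT LKO livers were not analysed here.

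The family shares a carboxy-terminal block of zinc fingers that reads GC-rich DNA, the GC box and the CACCC box, and differs in the amino-terminal part that recruits cofactors. Klf3 and Klf12 (with Klf8) bind the corepressor CtBP, Klf9, Klf10, Klf11, Klf13 and Klf16 (with Klf14) bind the corepressor Sin3, and Klf4 and Klf6 (with Klf1, Klf2, Klf5 and Klf7) work with acetyltransferases. In liver, Klf15 is known as an activator of amino acid breakdown and gluconeogenesis, Klf9 as a target of the glucocorticoid receptor, Klf10 as a clock-controlled regulator of glucose and lipid genes, and Klf11 as a relative of Klf10 that was also found as a TGF-beta inducible gene.

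The genomic stretches just upstream of Klf11, Klf12 and Klf15 are shown because Klf11 and Klf12 passed the test in at least 1 comparison and Klf15 was the member with the highest level. They come from RefSeq promoter windows of GRCm38.p6 (250 bases before to 50 after the RefSeq start), which held 8 of the 10 members. Each stretch runs 5′ to 3′ on the strand of the gene and holds no annotated exon base of that gene. Exons of other genes were not checked in these stretches. Capitals mark the E-box CACGTG, which clock and MYC-type factors bind, and the motif TGACG, a piece of the cAMP response element, on either strand.
Klf11, chr12:24651121-24651273, plus strand, 153 bases: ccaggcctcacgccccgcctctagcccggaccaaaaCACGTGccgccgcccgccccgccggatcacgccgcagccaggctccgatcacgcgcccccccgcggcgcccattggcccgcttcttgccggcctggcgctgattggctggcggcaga
Klf12, chr14:100149797-100150046, minus strand, 250 bases: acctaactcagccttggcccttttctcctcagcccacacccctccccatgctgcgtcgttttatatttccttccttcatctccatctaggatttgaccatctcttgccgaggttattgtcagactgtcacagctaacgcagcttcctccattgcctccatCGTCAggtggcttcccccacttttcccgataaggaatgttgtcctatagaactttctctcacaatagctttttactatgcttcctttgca
Klf15, chr6:90462326-90462575, plus strand, 250 bases: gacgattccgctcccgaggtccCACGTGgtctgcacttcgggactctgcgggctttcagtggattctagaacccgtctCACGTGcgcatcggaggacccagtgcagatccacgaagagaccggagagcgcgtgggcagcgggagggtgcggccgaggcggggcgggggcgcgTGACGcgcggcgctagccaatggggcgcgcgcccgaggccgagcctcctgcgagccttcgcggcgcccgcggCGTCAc
The Klf11 stretch held an E-box at position -214 from the RefSeq start. The Klf15 window held E-boxes at positions -228, -172 and -3, the last of which crosses the RefSeq start and overlaps a TGACG motif at position -6. The Klf12 window held a TGACG motif at position -90 and no E-box. For Klf12 the GENCODE annotation also has transcripts that start farther upstream than this window.

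Across the 8 members with a window, the E-box CACGTG was present in 4 (Klf4, Klf6, Klf11 and Klf15), against 7.15% of all 32851 windows of the same length. The windows of the members were GC-rich, with 7 of 8 at or above 60% GC and the Klf12 window at 45.7%, whereas the median of all windows was 52.7%. Among the 9690 windows at or above 60% GC the E-box share was 10.8%. The GC box GGGCGG, the element the family itself binds, was found in 6 members (35.7% of all windows, 80.6% of the GC-rich windows). The CACCC box CCACCC was found in 2 members, Klf3 and Klf13 (31.5% of all windows, 43.1% of the GC-rich windows). The motif TGACG was found in 6 members (20.8% of all windows, 31.6% of the GC-rich windows). The full element TGACGTCA (1.79% of all and 3.03% of the GC-rich windows), the D-box TTATGTAA (0.938% and 0.237%) and the glucocorticoid receptor motif AGAACA (19% and 7.34%) had no match in the 8 windows. All motifs were searched on both strands, and TGACG is contained in TGACGTCA.

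Counts differed widely between the members. Total counts per library ranged from 30603080 to 43434139, and the counts of a member in a library ranged from 70 for Klf4 to 13112 for Klf15. Nampt, which checks the genotype labels but not the feeding labels, had a mean of 13.2 CPM (SD 1.49) over the 5 NAMPT LKO libraries. Its mean was 92.4 CPM (SD 42.3) over the 3 WT Fasting libraries and 72.9 CPM (SD 7.25) over the 2 WT Refed libraries. Library NAMPT LKO Fasting 5 stood apart, with 21.1% of its counts on the mitochondrial genome against 7.42 to 12.9% in the others, and with the strongest trend with GC content of the transcripts (Spearman's rho across 13369 genes -0.565 against -0.03 to 0.27). The 8 hepatocyte markers were all tested, and their summed level ranged from 69705 to 117210 CPM over the libraries. CPM here means counts scaled to a common library size after TMM, an edgeR method that sets library sizes on the bulk of the genes.

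Per transcript length, Klf15 and Klf9 were the most abundant members in each group. Levels between genes are given as RPKM (the TMM-scaled CPM divided by exon length in kilobases). The means of the group means were 87.7 RPKM for Klf15, 58.8 for Klf9, 27.7 for Klf3, 9.90 for Klf13, 6.45 for Klf12, 5.95 for Klf10, 2.75 for Klf6, 2.07 for Klf11, 1.87 for Klf16 and 0.80 for Klf4. Klf15 was above Klf9 in 10 of 10 libraries and Klf9 above Klf3 in 10 of 10. Klf3 was also above Klf13, and Klf10 above Klf6, in 10 of 10. The other neighbors in the order changed places in some libraries, with Klf13 above Klf12 in 8 of 10, Klf12 above Klf10 in 6, Klf6 above Klf11 in 8, Klf11 above Klf16 in 7 and Klf16 above Klf4 in 9. Together Klf9 and Klf15 held 68.2 to 75.04% of the summed RPKM of the 10 members. The ratio of Klf9 to Klf15 RPKM was 0.75 in both WT Refed libraries, 0.51, 0.63 and 0.51 in the WT Fasting libraries and between 0.65 and 0.97 in the NAMPT LKO Fasting libraries. The WT Fasting ratios were therefore below those of both other groups in these libraries, a difference that was not tested.

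**Figure D1:**
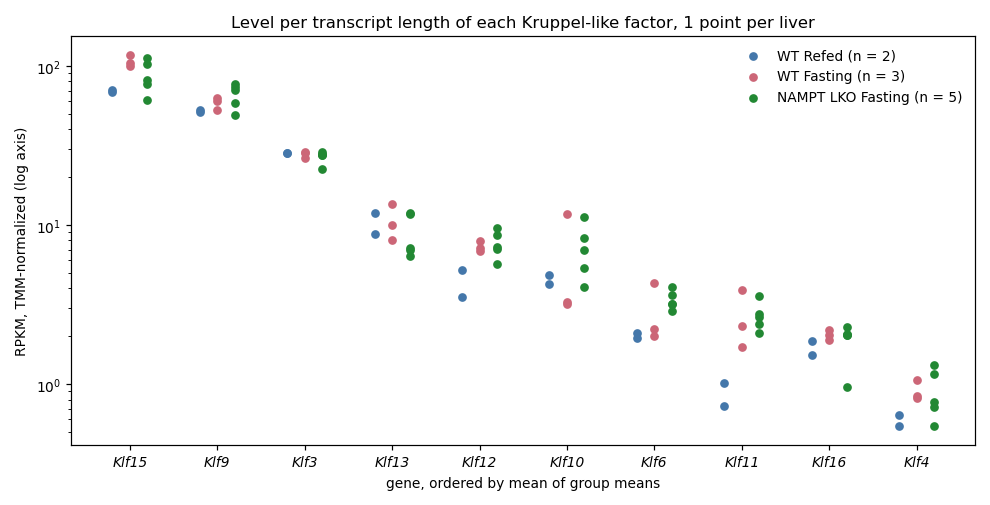
RPKM on a log axis for each member, ordered by the mean of the group means, with 1 point per liver colored by group. Klf15 and Klf9 lie above the other members in each group, Klf4 lies lowest by mean, and the WT Refed points of Klf11 lie below all fasted points of that gene.

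WT Fasting vs. WT Refed livers address how the family differs between fasting and refeeding when Nampt is intact. By the labels the refed mice had also been fasted, so a change on fasting and one on refeeding cannot be told apart. Klf11 was the member that passed the test, at 3.04-fold higher in fasted livers (95% interval 1.79 to 5.15). The count of 1 of 10 members called compares with 7.04% of all genes tested, with 2.68% called higher and 4.36% lower (edgeR's quasi-likelihood test, Benjamini-Hochberg adjusted p at or under 0.05). Klf12 and Klf15 were higher by a smaller factor and did not pass after adjustment, and Klf3 and Klf13 lay near a log2 fold change of 0. The median log2 fold change of the 10 members was 0.46, against 0.04 over all genes tested. Of the 10 members 9 were above 0, against 53.6% of all genes. The members were chosen with earlier results of these data known, so these values describe the set and are no independent test of it.

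Klf11, the Sin3-binding relative of Klf10, was measured at 4.33 and 3.07 CPM in the WT Refed livers and at 9.75, 7.29 and 16.6 CPM in WT Fasting livers 1 to 3. The groups did not overlap, and WT Fasting 3 was the highest of all 10 livers. Its log2 fold change was 1.60 (SE 0.35, adjusted p = 0.0194, edgeR). The call was kept without WT Fasting 3, at a log2 fold change of 1.20 (adjusted p = 0.0335, same test). It was lost without WT Refed 1 (adjusted p = 0.0933), without WT Refed 2 (adjusted p = 0.226) and in a fit of the 5 libraries of these groups alone (adjusted p = 0.0503), each by edgeR, so that 0 members were called without either refed library.

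Klf12, a CtBP-binding repressor, stood at 6.54 and 9.64 CPM in WT Refed livers and at 13.4, 14.7 and 12.8 CPM in WT Fasting livers. The groups did not overlap, and the highest value over the lowest was 1.47 within the refed and 1.15 within the fasted group. The log2 fold change was 0.75 (SE 0.23, adjusted p = 0.0766, edgeR). Without NAMPT LKO Fasting 5, which enters through the shared estimate of the spread, the adjusted p by edgeR was 0.029, so that 2 members were called. This was the only one of the 10 fits with 1 library left out that called Klf12, and over them the log2 fold change ran from 0.49 to 1.05 and the adjusted p by edgeR up to 0.463. Of the 8 other alternatives 4 called it, namely DESeq2, edgeR's exact test, voomWithQualityWeights and the removal of the GC trend.

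Klf15, the amino acid and glucose regulator, was measured at 177 and 173 CPM in WT Refed livers and at 262, 252 and 297 CPM in WT Fasting livers. Again each fasted liver lay above both refed livers. The log2 fold change was 0.63 (SE 0.23, adjusted p = 0.127, edgeR), and it passed with voomWithQualityWeights (adjusted p = 0.0352) and in the edgeR fit of these groups alone (adjusted p = 0.0182). The other 6 of 8 alternatives did not call Klf15, among them DESeq2 (adjusted p = 0.060) and edgeR's exact test (adjusted p = 0.114), nor did any of the 10 fits with 1 library left out (adjusted p 0.0691 to 0.480, edgeR).

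At an unadjusted p under 0.05, 3 of 10 members passed (Klf11, Klf12 and Klf15), against 22.3% of all genes. The WT Fasting libraries lay wholly above the WT Refed libraries for 6 members (Klf4, Klf9, Klf11, Klf12, Klf15 and Klf16), against 49.7% of all genes, 24.5% in that direction and 25.1% in the lower one. Klf9, the glucocorticoid receptor target, was measured at 171 and 167 CPM in WT Refed livers and at 173, 206 and 196 CPM in WT Fasting livers. The lowest fasted liver was within 2 CPM of the refed livers, and the log2 fold change was 0.18 (SE 0.18, adjusted p = 0.611, edgeR). Klf4, best known as a pluripotency and endothelial factor, had a log2 fold change of 0.62 at a low level (1.66 to 3.26 CPM over these livers), and Klf16 one of 0.26. Klf3, a repressor that recruits CtBP, lay between 65.1 and 71.5 CPM in all 5 livers, with a log2 fold change of -0.03 (95% interval -0.30 to 0.24).

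**Figure D2:**
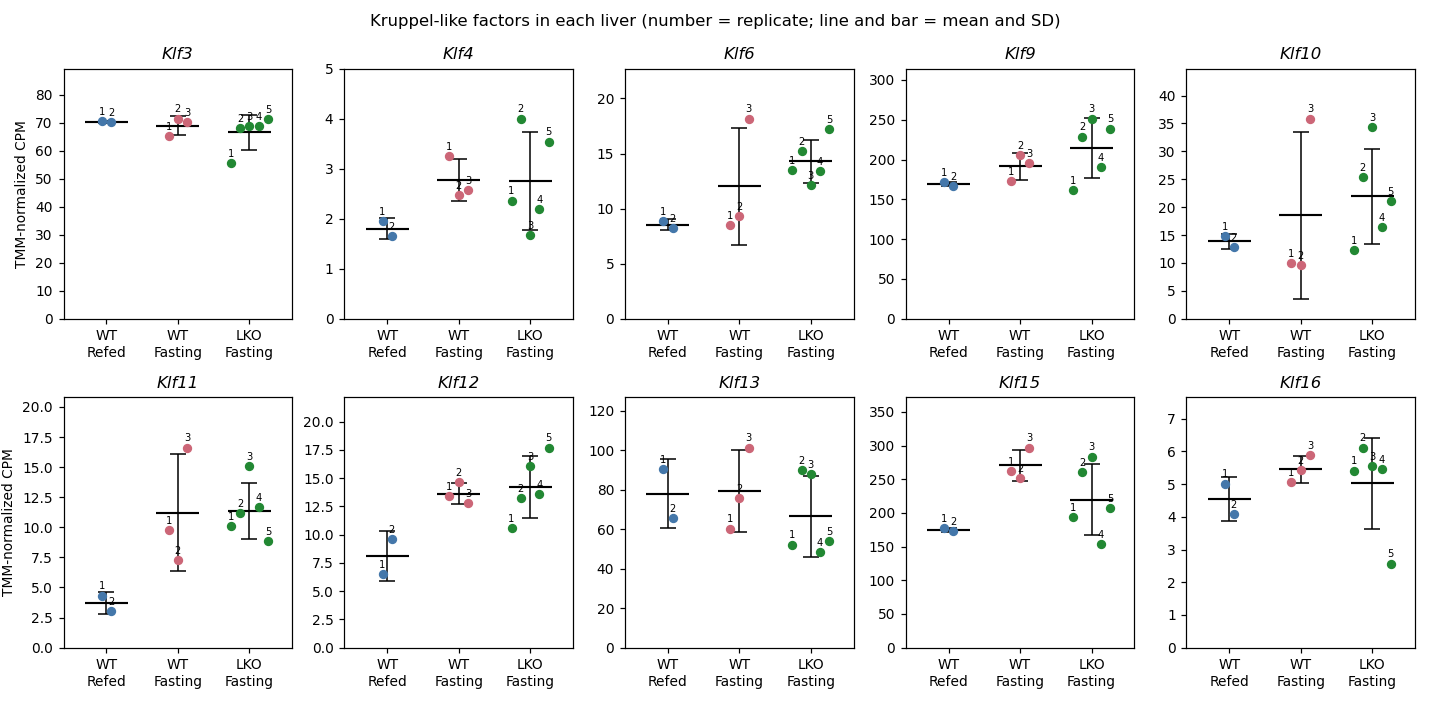
TMM-normalized CPM of each member in each liver, with the replicate number at each point and black lines and bars for the group mean and SD (n = 2, 3 and 5). Klf11 and Klf12 are higher in fasted livers of both genotypes than in refed livers. WT Fasting 3 is the highest WT liver for Klf6, Klf10, Klf11, Klf13, Klf15 and Klf16.

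Klf10, Klf6 and Klf13 were compared with and without WT Fasting 3. Klf10 was measured at 14.8 and 12.9 CPM in WT Refed livers and at 10.1, 9.67 and 35.9 CPM in WT Fasting livers 1 to 3. WT Fasting 1 and 2 thus lay below both refed livers and WT Fasting 3 far above them. The log2 fold change of Klf10 was 0.42 (95% interval -0.79 to 1.64) with all livers and -0.50 without WT Fasting 3. Klf6, a factor of the acetyltransferase group known for its role in stellate cell activation, was measured at 8.87 and 8.21 CPM in WT Refed livers and at 8.53, 9.33 and 18.2 CPM in WT Fasting livers. WT Fasting 3 again lay far above the others, and the log2 fold change went from 0.49 to 0.05 without it. Klf13, which binds Sin3 and was first studied in T cells, was measured at 90.4 and 65.9 CPM in WT Refed livers and at 60.4, 75.8 and 101 CPM in WT Fasting livers. The Klf13 groups overlapped, and the log2 fold change was 0.02 with all livers, -0.21 without WT Fasting 3 and -0.20 without WT Refed 2.

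**Figure D3:**
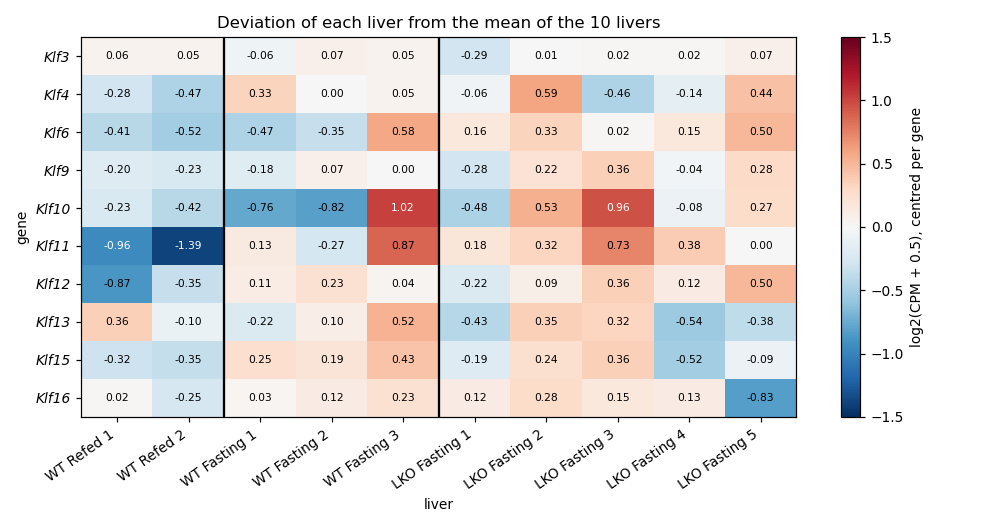
Deviation of each liver from the mean of the 10 livers, per member, as centred log2(CPM + 0.5), with black lines between the groups. WT Fasting 3 and LKO Fasting 3 are high for Klf10 and Klf11, both WT Refed livers are low for Klf11 and Klf12, and LKO Fasting 5 is low for Klf16.

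Markers of Kupffer cells, the resident macrophages of liver, were set beside the Klf10 values. All 7 Kupffer cell markers were tested and none was at 0. Their summed level was 223 and 178 CPM in WT Refed livers, 233, 232 and 462 CPM in WT Fasting livers 1 to 3, and 159, 282, 358, 279 and 227 CPM in NAMPT LKO Fasting livers 1 to 5. The libraries with the highest sums, WT Fasting 3 and NAMPT LKO Fasting 3, were also those with the highest Klf10, at 35.9 and 34.4 CPM, and the highest Klf11, at 16.6 and 15.1 CPM. Elsewhere the order differed. WT Fasting 1 and 2 had higher sums than both refed livers but lower Klf10 (10.1 and 9.67 against 14.8 and 12.9 CPM). The markers also differed among themselves over the WT Fasting livers, from 22.0 to 24.7 CPM for Vsig4 and from 60.8 to 151 CPM for Cd5l. WT Fasting 3 also had the highest Nampt of the WT livers, at 141 CPM against 63.0 to 78.0 CPM. The part of these cells in the result was not tested, and in whole liver more cells of a type and more RNA per cell cannot be told apart. The genes whose pattern over the 10 libraries was nearest to that of Klf10, by the mean absolute difference of centred log2(CPM + 0.5), were Entpd1 (0.24), Itgb2 (0.24) and Cd44 (0.25). The median over 9137 genes was 0.59, and the mean absolute deviation of Klf10 itself was 0.56. Entpd1, Itgb2 and Cd44 were picked as nearest in these same libraries, so values below that median follow from the choice. Each of these genes had its highest group mean in WT Fasting livers, whereas Klf10 had it in NAMPT LKO Fasting livers (21.9 against 18.5 CPM).

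**Figure D4:**
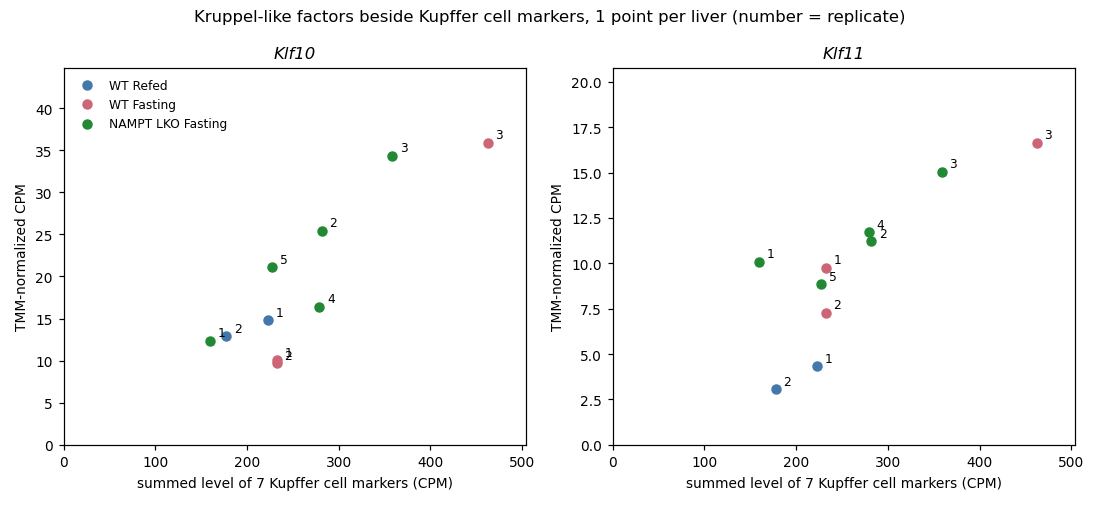
CPM of Klf10 (left) and Klf11 (right) against the summed CPM of 7 Kupffer cell markers, with 1 numbered point per liver colored by group. WT Fasting 3 and NAMPT LKO Fasting 3 lie at the upper right of both panels, and the WT Refed livers are lowest for Klf11 but not for Klf10.

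NAMPT LKO Fasting vs. WT Fasting livers ask whether hepatocyte Nampt affects the family during fasting. With edgeR's quasi-likelihood test, 0 of 10 members were called, where 0.00744% of all genes were, that is Nampt alone. At an unadjusted p under 0.05 the members counted 0 against 6.03% of all genes, and the groups overlapped for all 10 members, where 3.99% of all genes did not overlap (2.12% of all genes in the lower direction). Of the members 5 had a log2 fold change above 0, against 50.1% of all genes. DESeq2, edgeR's exact test and voomWithQualityWeights each called 0 members as well. The median log2 fold change of the members was 0.0027, against 0.00025 over all genes tested. These p-values do not show that the genotypes act alike, and 95% intervals are therefore given with the differences.

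Klf11 stood at 10.1, 11.2, 15.1, 11.7 and 8.84 CPM in NAMPT LKO Fasting livers 1 to 5, a range inside that of the WT Fasting livers. Its log2 fold change was 0.02 (95% interval -0.55 to 0.59). Klf15 was measured at 193, 261, 284, 153 and 207 CPM in the NAMPT LKO livers, so that 3 of 5 lay below the lowest WT Fasting liver and NAMPT LKO Fasting 4 lay below both refed livers. The log2 fold change of Klf15 was -0.30 (SE 0.18, adjusted p = 0.837, edgeR, 95% interval -0.69 to 0.09), the lowest value among the members. Klf9 was measured at 161, 229, 251, 191 and 239 CPM, which spans the WT Fasting livers on both sides, with a log2 fold change of 0.16 (95% interval -0.16 to 0.48).

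Klf10 ranged from 12.4 to 34.4 CPM in NAMPT LKO livers, with a log2 fold change of 0.24 and the widest interval of the family (-0.72 to 1.21). Without WT Fasting 3 this value was 1.15 and it still did not pass (adjusted p = 0.989 by edgeR). Klf6 ranged from 12.1 to 17.2 CPM, above WT Fasting 1 and 2 and below WT Fasting 3, with a log2 fold change of 0.25 (95% interval -0.26 to 0.76). It was 0.68 without WT Fasting 3, 0.05 without WT Fasting 1 and 0.10 without WT Fasting 2. For Klf13, NAMPT LKO livers fell apart into 2 livers at 90.2 and 87.9 CPM and 3 between 48.3 and 54.1 CPM, and the log2 fold change was -0.25 (95% interval -0.79 to 0.29), -0.41 without WT Fasting 1 and -0.03 without WT Fasting 3. Neither gene was called in these fits. Log2 fold changes nearer to 0 were those of Klf12 at 0.06 (95% interval -0.33 to 0.46), Klf3 at -0.05, Klf4 at -0.01 (95% interval -0.64 to 0.61) and Klf16 at -0.12 (95% interval -0.65 to 0.41). The narrowest interval was that of Klf3, from -0.27 to 0.17.

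**Figure D5:**
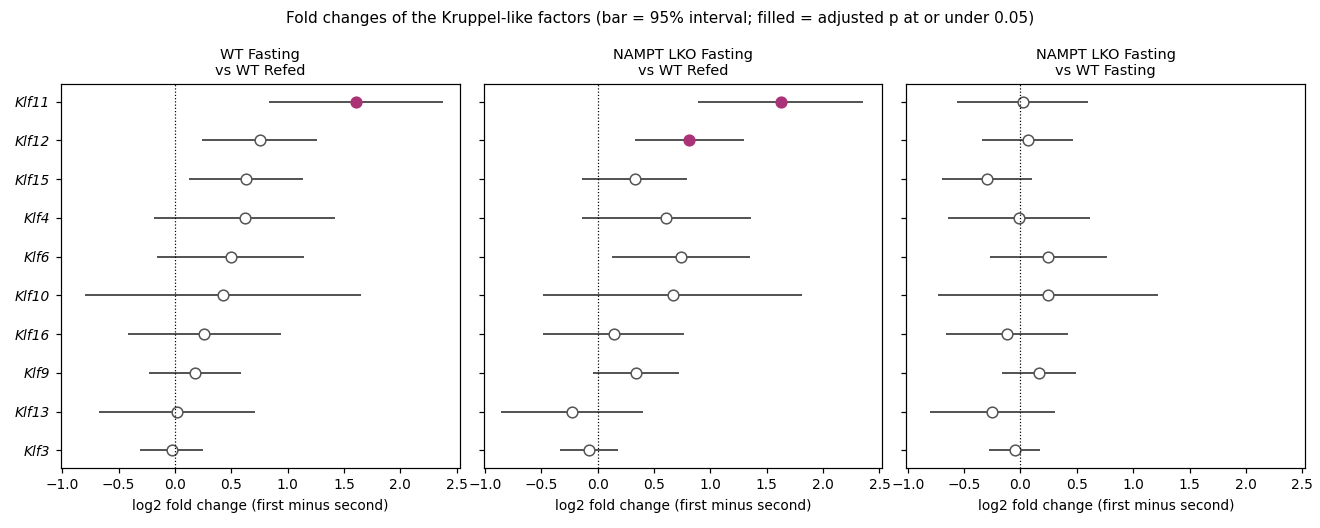
Log2 fold change of each member in each comparison, with 95% intervals from edgeR's quasi-likelihood fit and filled points where the adjusted p was at or under 0.05. Klf11 is filled in both comparisons with WT Refed livers and Klf12 in the NAMPT LKO one, and no point is filled between the fasted genotypes.

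NAMPT LKO Fasting vs. WT Refed livers compare fasted mice without hepatocyte Nampt with the same 2 WT Refed libraries as before, and genotype and feeding cannot be told apart here. Klf11 and Klf12 were called, 2 of 10 members against 11.2% of all genes, 4.65% higher and 6.58% lower. Klf11 was 3.08-fold higher (log2 fold change 1.62, SE 0.33, adjusted p = 0.0112, edgeR), with all 5 NAMPT LKO livers above both refed livers. Klf12 was measured at 10.6, 13.2, 16.03, 13.6 and 17.7 CPM in NAMPT LKO livers, all above the refed values of 6.54 and 9.64 CPM. Its log2 fold change was 0.81 (SE 0.21, adjusted p = 0.0349, edgeR). Klf6 was 1.67-fold the refed level and did not pass (log2 fold change 0.74, adjusted p = 0.11 by the same test), with all NAMPT LKO livers above the refed livers. Stellate cell markers (7 of 7 tested, none at 0) summed to 184 and 186 CPM in the refed and 224 to 299 CPM in the NAMPT LKO livers. Dcn had the highest level of them, with means of 121 CPM in refed and 172 CPM in NAMPT LKO livers. Lrat went the other way (14.6 and 11.9 CPM), and Des had means of 4.88 and 5.52 CPM. The part of these markers in the Klf6 values was not tested.

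Groups did not overlap for 3 members (Klf6, Klf11 and Klf12), all higher in NAMPT LKO livers, against 33.5% of all genes and 15.7% in that direction. A log2 fold change above 0 was found for 8 of 10 members, against 53.2% of all genes. That share only describes the set, which was chosen with earlier results known. The same 3 members were those at an unadjusted p under 0.05, against 26.1% of all genes. The log2 fold change was 0.33 for Klf15, 0.34 for Klf9, 0.66 for Klf10, 0.61 for Klf4, 0.14 for Klf16, -0.08 for Klf3 and -0.23 for Klf13. The Klf11 call was lost without WT Refed 1 (adjusted p = 0.0677) or WT Refed 2 (adjusted p = 0.171), and 0 members were then called. The Klf12 call held in 3 of the 10 edgeR fits that left out 1 library, without NAMPT LKO Fasting 1 or 5 or WT Fasting 3. It was lost without WT Refed 1 or 2, WT Fasting 1 or 2, or NAMPT LKO Fasting 2, 3 or 4, where the adjusted p lay between 0.0504 and 0.329. Without WT Fasting 3, Klf6 was also called (adjusted p = 0.0163), which made 3 members. In a fit of these groups alone Klf6 (adjusted p = 0.0291) was called in place of Klf12 (adjusted p = 0.0647), both by edgeR.

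The other Klf and Sp factors, close relatives with the same zinc-finger block, were measured for comparison. Of 16 listed, 9 passed the filter on low values, and Sp6 and Sp8 were at 0 in all libraries. Klf1, the erythroid member, was called in WT Fasting vs. WT Refed livers (4.91 against 2.41 CPM, log2 fold change 1.02, SE 0.25, adjusted p = 0.0351, edgeR) and in NAMPT LKO Fasting vs. WT Refed livers (0.89, adjusted p = 0.0355). The 5 red cell markers were all tested, and their summed level did not separate the groups (508 and 1128 CPM in WT Refed, 427 to 1404 CPM in WT Fasting and 332 to 1294 CPM in NAMPT LKO Fasting livers). With 1 library left out, Klf1 kept its call in 3 of 10 edgeR fits in each comparison. These were the fits without NAMPT LKO Fasting 4, NAMPT LKO Fasting 5 or WT Fasting 3 for the WT Fasting livers, and without WT Fasting 2, WT Fasting 3 or NAMPT LKO Fasting 5 for the NAMPT LKO livers.

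Klf2, a factor of endothelial cells, was measured at 11.1 and 9.11 CPM in WT Refed livers, at 23.4, 19.2 and 23.0 CPM in WT Fasting livers and at 13.3, 26.2, 14.8, 21.4 and 11.9 CPM in NAMPT LKO Fasting livers. Fasted livers of both genotypes lay above the refed livers. The log2 fold change in WT Fasting vs. WT Refed livers was 1.11 (SE 0.31, adjusted p = 0.057, edgeR). Klf2 was called by 6 of 8 alternatives, among them DESeq2 (adjusted p = 0.00667), voomWithQualityWeights (adjusted p = 0.00767) and edgeR's exact test (adjusted p = 0.0155), and by 2 of the 10 fits with 1 library left out, without NAMPT LKO Fasting 2 or 5. All 8 endothelial markers were tested, with sums of 202 and 206 CPM in WT Refed, 224 to 240 CPM in WT Fasting and 203 to 260 CPM in NAMPT LKO Fasting livers, and their part in the Klf2 values was not tested. Sp2 was lower in NAMPT LKO Fasting than in WT Refed livers (log2 fold change -0.63, SE 0.16, adjusted p = 0.0289 by the same test) and had a log2 fold change of -0.44 in WT Fasting vs. WT Refed livers, where it was not called. The Sp2 call against refed livers was lost in 4 of 10 edgeR fits with 1 library left out, without WT Refed 1 (adjusted p = 0.302), WT Refed 2 (adjusted p = 0.0944), NAMPT LKO Fasting 1 (adjusted p = 0.0537) or NAMPT LKO Fasting 2 (adjusted p = 0.0589), and without the filter on low counts (adjusted p = 0.0532). Sp5, an effector of Wnt signaling, had log2 fold changes of -0.98 and -1.36 in these comparisons with adjusted p of 0.224 and 0.051 by edgeR. Klf7, Sp1, Sp3, Sp4 and Sp9 were called in no comparison, with absolute log2 fold changes of at most 0.38 for Sp3.

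The cofactor complexes were counted gene by gene. Over all genes tested, 7.04% were called in WT Fasting vs. WT Refed livers and 11.2% in NAMPT LKO Fasting vs. WT Refed livers. Of the 14 genes of the Sin3 corepressor complex, bound by Klf9, Klf10, Klf11, Klf13 and Klf16, 0 were called higher and 1 lower in WT Fasting vs. WT Refed livers. That gene was Rbbp4, a histone-binding subunit (52.4 against 73.5 CPM, log2 fold change -0.49, SE 0.10, adjusted p = 0.0176, edgeR). Ing2, a reader subunit of the complex, came next (0.72, adjusted p = 0.061) and was called in NAMPT LKO Fasting vs. WT Refed livers (0.83, adjusted p = 0.0206). Of the 11 CtBP complex genes 0 were called in any comparison by edgeR's quasi-likelihood test, with 0 at an unadjusted p under 0.05. DESeq2 and the exact test called 0 as well. In WT Fasting vs. WT Refed livers voomWithQualityWeights called 1, where it called 3331 of all 13444 genes tested. Kdm1a (0.29, adjusted p = 0.28, edgeR) and Ehmt2 (0.28, adjusted p = 0.40, edgeR) came nearest in that comparison. Of the 4 acetyltransferase coactivators, Kat2b was higher in WT Fasting than in WT Refed livers (83.5 against 53.6 CPM, log2 fold change 0.64, SE 0.13, adjusted p = 0.014 by the same test) and Crebbp was not called (0.34, adjusted p = 0.195).

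Gene groups that Klf15, Klf9 and Klf10 are known to share with other fasting regulators were counted beside them. The shares called over all genes in WT Fasting vs. WT Refed livers were 2.68% higher and 4.36% lower. All gene lists were chosen with earlier results of these data known, so their counts beside these shares are description and no independent test. In WT Fasting vs. WT Refed livers, 2 of 5 gluconeogenesis genes were called, both higher: Pck1 (4254 against 1606 CPM, log2 fold change 1.41) and G6pc (382 against 41.2 CPM, 3.21), the committed enzymes of glucose output. Of 12 glucocorticoid-responsive genes, 7 were called higher and 0 lower, with Dusp1, a MAP kinase phosphatase (1.54, adjusted p = 0.00704, edgeR), and Errfi1, a feedback inhibitor of EGF receptor signaling (0.84, adjusted p = 0.0118), at the lowest p. The median log2 fold change of that list was 1.00, against 0.04 over all genes. Of 14 genes of amino acid breakdown and the ornithine cycle, 0 were called by edgeR's quasi-likelihood test, 6 had an unadjusted p under 0.05, and DESeq2 called 5, voomWithQualityWeights 6 and the exact test 2. Over all 13444 genes tested, 22.3% had an unadjusted p under 0.05 in this comparison. There DESeq2 called 1646, voomWithQualityWeights 3331 and the exact test 1198 genes. The values of 13 of the 14 listed genes lay above 0, with a median of 0.22. Sds, serine dehydratase, was nearest to the threshold (1.03, adjusted p = 0.0528), followed by Gpt2, an alanine aminotransferase (0.43, adjusted p = 0.061), both by edgeR.

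Of 18 clock genes, 1 was called higher (Per1) and 3 lower in WT Fasting vs. WT Refed livers, against 2.68% and 4.36% of all genes. Bhlhe41 (log2 fold change -2.66) and Per2 (-1.71), both repressors of the clock, had the lowest p. Of 11 immediate early genes tested of 12 listed, 2 were called higher, Dusp1 and Zfp36, an mRNA-destabilizing protein (0.83, adjusted p = 0.0436, edgeR). Over all 13444 genes tested in WT Fasting vs. WT Refed livers, 22.3% had an unadjusted p under 0.05. There DESeq2 called 1646, voomWithQualityWeights 3331 and the exact test 1198 genes. Of 10 TGF-beta response genes 0 were called in any comparison by edgeR's quasi-likelihood test. In WT Fasting vs. WT Refed livers 1 had an unadjusted p under 0.05, and DESeq2 called 0, voomWithQualityWeights 3 and the exact test 0, where Smad4 (0.35, adjusted p = 0.099) and Tgfbr1 (0.34, adjusted p = 0.228, edgeR) had the lowest p. Of 9 lipogenesis genes 0 were called by edgeR's quasi-likelihood test in WT Fasting vs. WT Refed livers, 3 had an unadjusted p under 0.05, and DESeq2 called 1, voomWithQualityWeights 3 and the exact test 1. Among them Elovl6 (-1.10, adjusted p = 0.0848) and Fasn (-0.79, adjusted p = 0.148, edgeR) had the lowest p, and the median was -0.22. In NAMPT LKO Fasting vs. WT Refed livers the counts called higher and lower were 3 and 0 of 5 for gluconeogenesis and 5 and 0 of 12 for glucocorticoid-responsive genes. They were 3 and 0 of 14 for amino acid breakdown, 0 and 4 of 18 for clock genes and 0 and 1 of 9 for lipogenesis. Over all genes, 4.65% were called higher and 6.58% lower there.

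Between the fasted genotypes 0 genes of these lists were called by edgeR's quasi-likelihood test, DESeq2, voomWithQualityWeights or the exact test. At an unadjusted p under 0.05 (edgeR) there were 4 of 12 glucocorticoid-responsive genes, 2 of 18 clock genes and 2 of 11 immediate early genes. There were also 1 of 14 Sin3 genes and 1 of 14 amino acid genes, where the share over all genes was 6.03%. Dusp1 and Per1 were in a pair of lists each. The genes with the lowest p were Sin3b among the Sin3 genes (log2 fold change -0.27, adjusted p = 0.798, edgeR), Tsc22d3 among the glucocorticoid-responsive genes (-0.54, adjusted p = 0.798, edgeR) and Ciart among the clock genes (-1.37, adjusted p = 0.801, edgeR). Dusp1 among the immediate early genes had a log2 fold change of -0.47 (adjusted p = 0.827, edgeR) and Gpt among the amino acid genes one of -0.29 (adjusted p = 0.827, edgeR). In the other lists, Rcor3 (0.35), Kat2a (-0.17), Ppargc1a (0.62), Scd1 (0.46) and Skil (0.19) had the lowest p, all above 0.05 before adjustment. Median log2 fold changes were between -0.18 for gluconeogenesis and 0.10 for the Sin3 complex.

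The summed level of glucocorticoid-responsive genes in each liver was set beside Klf9 and Klf15. The summed level of that list was 3361, 4317, 5153, 2780 and 4711 CPM in NAMPT LKO Fasting livers 1 to 5. NAMPT LKO Fasting 3 was the highest of the 5 for the list, for Klf9 (251 CPM) and for Klf15 (284 CPM), and livers 1 and 4 were the lowest 2 for all of them. NAMPT LKO Fasting 5 was above liver 2 for the list but below it for Klf15 (207 against 261 CPM). Tat and Errfi1 had the highest levels in the list (means of 1756 and 1457 CPM in NAMPT LKO livers), and Tat is also in the amino acid list. The list sums were 2252 and 2575 CPM in the WT Refed livers and 4808, 4300 and 4786 CPM in the WT Fasting livers. WT Fasting 1, with the highest of these sums, had the lowest Klf9 of its group (173 CPM). With 5 livers no correlation was computed.

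The genes with a pattern nearest to that of the other members over the 10 libraries were found in the same way as for Klf10, among 9137 genes outside the family with a mean of at least 5 CPM. For Klf11 they were Zfp36l2 (mean absolute log2 difference 0.20), Crebrf (0.20) and Slc8b1 (0.22), where the median over all candidates was 0.57. Zfp36l2, an mRNA-decay factor, had means of 38.8 CPM in WT Refed, 77.5 CPM in WT Fasting and 84.8 CPM in NAMPT LKO Fasting livers. Those of Klf11 were 3.70, 11.2 and 11.4 CPM, and the likeness follows from the choice of Zfp36l2 by these same libraries. For Klf12 they were Rictor (0.11), Wdfy1 (0.12) and Sik3 (0.12), for Klf15 Lurap1l (0.09), Cdip1 (0.12) and Plekhg3 (0.13), and for Klf9 Igfbp3 (0.06), Ehd3 (0.07) and Ash1l (0.08). The 10 libraries behind these differences share 3 groups, so a shared group pattern alone gives a small value.

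All 10 members lie on autosomes of GRCm38, and none shares exon sequence with another gene of the deposited annotation. Klf11 (ENSMUSG00000020653) lies on chromosome 12 from 24651371 to 24662774 on the plus strand, Klf12 (ENSMUSG00000072294) on chromosome 14 from 99874486 to 100149764 on the minus strand, and Klf15 (ENSMUSG00000030087) on chromosome 6 from 90462576 to 90475238 on the plus strand. Klf9 (ENSMUSG00000033863) lies on chromosome 19 from 23141226 to 23166911 on the plus strand and Klf10 (ENSMUSG00000037465) on chromosome 15 from 38294413 to 38300707 on the minus strand. The counted exon lengths of the 10 members ran from 1856 bases for Klf12 to 7535 bases for Klf13, and their GC contents from 42.4% for Klf6 to 60.4% for Klf16. The fitted biological coefficient of variation, which measures the spread between libraries of a group, was 0.12 for Klf3, lower than for all but 6.77% of the genes tested, and 0.41 for Klf10, at the 93.7 percentile.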

How the data were processed

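RNA-seq libraries from 10 livers (5 NAMPT LKO Fasting, 3 WT Fasting, 2 WT Refed) were analyzed, with groups and replicate numbers from the sample labels. Per the labels and the methods of the study, the authors selected polyadenylated RNA, sequenced short single reads, used STAR for alignment (GRCm38) and featureCounts for counts of unique alignments over Ensembl genes (versions 2.5.1a and 1.4.6-p5 in the submitters' processing notes). The strand setting of the counting is not given in the sources used here. The deposited counts were used without change. The CPM values deposited by the authors equal the counts scaled by the library total, and the deposited RPKM values divide these by exon length, so neither was used further. Total counts were between 30603080 and 43434139 per library, and intervals of fold changes cover the spread between libraries. Of 41388 genes, 40340 were given a symbol from GENCODE vM21.

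After rRNA genes were left out, the 13444 genes exceeding 1 CPM in any library entered TMM scaling and edgeR 4.0.16 under R 4.3.3 (glmQLFit with its legacy default, glmQLFTest), in a single fit of all 10 libraries with 1 mean per group and no covariate. P-values were Benjamini-Hochberg adjusted over all genes and called at or under 0.05. Comparisons share libraries: WT Fasting enters the first and the second, WT Refed the first and the third, NAMPT LKO Fasting the second and the third. Alternatives were library size alone, DESeq2 1.42.0, voomWithQualityWeights of limma 3.58.1, edgeR's exact test, other filters, the groups compared alone, each library left out, removal of the trend with GC content (loess span 0.5) and a replicate block. The fit was tested on simulated data. Each pair of replicates differed by more than sampling noise.

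The members and all gene lists were chosen with earlier results of these data known. Named genes were all 10 members, Nampt, the relatives that passed the filter and, of each list, the 2 genes with the lowest p in WT Fasting vs. WT Refed livers and the 1 ranked first by p between the fasted genotypes. Per1 was named after its values were seen. Likeness used genes averaging 5 CPM or more, a pseudocount of 0.5 and the 3 nearest genes. Each library is 1 mouse, and p-values measure the spread between mice.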

Additional observations from a re-analysis of the deposited data

Results flagged for a closer look

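Of the 10 members, 2 had a NAMPT LKO Fasting liver far from the other 4, by the gap to the nearest liver as a share of the range (limit 0.71 for 5 livers). Chance passes this limit in about 1 of 20 groups, and the share that passes it over all genes tested was not computed. Klf3 was 55.5 CPM in NAMPT LKO Fasting 1 and between 68.3 and 71.4 CPM in the other NAMPT LKO livers (gap 0.804 of the range), and the gap was 0.492 once values were adjusted for GC content. Klf16, the member with the highest GC content, was 2.57 CPM in NAMPT LKO Fasting 5 and between 5.41 and 6.12 CPM in the others (gap 0.801). After that adjustment Klf16 was 3.93 CPM in that liver and the gap was 0.50. NAMPT LKO Fasting 5 is the library with 21.1% mitochondrial counts and a GC trend of rho -0.57, and the part of these in the Klf16 value was not tested further. Neither gene was called in any comparison.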

How the results depend on the processing

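The number of members called in WT Fasting vs. WT Refed livers was 1, became 2 with DESeq2, 2 with edgeR's exact test, 2 with the GC trend removed and 3 with voomWithQualityWeights, and ranged from 0 to 2 with 1 library left out (0 without WT Refed 1 or 2, and 2 without NAMPT LKO Fasting 5). With these groups alone it was 1, Klf15 in place of Klf11. In NAMPT LKO Fasting vs. WT Refed livers it was 2, ranged from 0 to 3 with 1 library left out and was 3 with voomWithQualityWeights. With these groups alone it was 2, Klf6 in place of Klf12. Between the fasted genotypes it was 0 in every alternative run. Over all genes the calls were 946, 1 and 1510 in the order of the report, against 1646, 24 and 2242 with DESeq2, 3331, 1 and 4281 with voomWithQualityWeights and 24 between the genotypes with the exact test. Leaving out 1 library gave 107 to 2231 in WT Fasting vs. WT Refed livers. The share of calls that were higher was 38.1% (25.7% with library size alone) in WT Fasting vs. WT Refed livers, and against refed livers the NAMPT LKO share was 41.4% (26.1%). The causes were not tested.

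No member or relative whose log2 fold change changed sign was called under that alternative. In WT Fasting vs. WT Refed livers these were Klf10 (-0.18 with voomWithQualityWeights), Klf13 (-0.042 with library size alone, -0.069 with voomWithQualityWeights, -0.019 with the GC trend removed), Klf7 (-0.047) and Sp4 (-0.0030), both with library size alone. Between the fasted genotypes they were Klf11 (-0.0079 with library size alone), Klf12 (-0.040), Klf16 (0.051) and Sp4 (-0.025) with voomWithQualityWeights, and Klf4 (0.096), Klf12 (-0.0034), Klf1 (0.0061) and Sp4 (-0.029) with the GC trend removed. With 1 library left out, the ranges in WT Fasting vs. WT Refed livers were -0.50 to 0.73 for Klf10, -0.21 to 0.25 for Klf13, -0.12 to 0.13 for Klf7, -0.13 to 0.23 for Sp4, -0.49 to 0.49 for Sp9 and -0.11 to 0.55 for Nampt. Between the fasted genotypes they were -0.089 to 0.0079 for Klf3, -0.19 to 0.12 for Klf4, -0.065 to 1.15 for Klf10, -0.21 to 0.42 for Klf11, -0.028 to 0.15 for Klf12, -0.20 to 0.045 for Klf16, -0.31 to 0.069 for Klf1, -0.090 to 0.28 for Sp4 and -0.41 to 0.56 for Sp9. In NAMPT LKO Fasting vs. WT Refed livers they were -0.45 to 0.0033 for Klf13, -0.0062 to 0.31 for Klf16 and -0.27 to 0.42 for Sp9.

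Replicate numbers 1 to 3 are shared by the fasted genotypes. Deviations of same-numbered libraries correlated at 0.0781 to 0.104, so the numbers were not taken to pair the mice, although each of these libraries correlated best with its own number. With the replicate block over libraries 1 to 3, 0 members and 0 genes were called, and also 0 without the block. Values that changed sign against all libraries were Klf12 (-0.052 with the block, -0.035 without), Klf16 (0.062 with and 0.062 without), Sp4 (-0.037 and -0.061) and Sp9 (0.26 and 0.20). The refed group of 2 livers limits all comparisons with it, and low counts limit Klf4 (70 to 136 per library).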

Other observations

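Within the WT Fasting group the highest value divided by the lowest was 3.71 for Klf10, 2.28 for Klf11 and 2.13 for Klf6, against 1.10 for Klf3 and 1.18 for Klf15. In NAMPT LKO Fasting livers it was 2.77 for Klf10, 2.40 for Klf4, 2.38 for Klf16, 1.87 for Klf13 and 1.85 for Klf15. In WT Refed livers it was at most 1.47, for Klf12, over 2 livers.

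Cholangiocyte markers (4 of 5 tested) summed to 10.7 and 11.2 CPM in WT Refed, 6.56 to 11.2 CPM in WT Fasting and 13.8 to 16.8 CPM in NAMPT LKO Fasting livers, without overlap between the NAMPT LKO and WT livers. Stellate cell markers (7 of 7 tested) summed to 184 and 186, 181 to 235 and 224 to 299 CPM, with Dcn as the largest part and a lower mean of Lrat in NAMPT LKO than in WT Refed livers. Neutrophil and lymphocyte markers had 1 tested gene each and summed to at most 2.24 and 3.27 CPM. These markers were not tested against the members.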
